A study of Mus musculus with 102 samples.

Results

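The adrenergic receptors are the cell-surface receptors through which neurons and other cells respond to noradrenaline and adrenaline. Of 6 receptor genes chosen by symbol (Adra1a, Adra1b, Adra1d, Adra2a, Adra2c and Adrb1), 2 had a probe set that the array's annotation assigns to that gene alone, Adra1b and Adra2c, and these are described here among 18193 genes measured in the same way. Adra1a, Adra1d, Adra2a and Adrb1 were not analysed here. Adra1b was read by 1 probe set (1422183_a_at) and Adra2c by 4, of which 1422335_at had the highest mean over the brain and spinal cord regions and was used for the results, with 1435296_at, 1439762_x_at and 1457328_at as checks. In the RefSeq annotation of GRCm38.p6 the Adra1b gene lies at chr11:43774605-43901250 and the Adra2c gene at chr5:35278566-35281763.

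Expression was measured with Affymetrix GeneChip arrays of the mouse genome in 51 regions of the brain, spinal cord, retina, pituitary and pineal of adult mice, with 2 arrays for each region. Every group was male Balb/c, 7 to 8 weeks of age, with no treatment or engineered allele, housed in a 12 h light and 12 h dark cycle before collection under that cycle or in constant darkness. Each array held RNA pooled from 30 to 150 mice, whose regions were punched from 0.5 mm slices at 6 time points spaced 4 h apart, so that differences between single mice or times of day are not visible. The 48 regions other than the retina, pituitary and pineal fall into the telencephalon (17 regions), hypothalamus (12), thalamus (6), mesencephalon (6), cerebellum (3), pons (2) and spinal cord (2), and the retina, pituitary and pineal were compared with these 48.

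All values are log2 expression values after robust multi-array averaging (RMA), on which a difference of 1 is a doubling. Median values of the arrays lay between 7.32 and 7.46, and no array stood apart in its median. The scale has no zero and the files give no detection call. Probe sets of 15 genes of other tissues, such as the sperm gene Prm1, averaged between 4.89 and 8.58 over the 48 regions, so a low value of a receptor probe set cannot be read as expression or as its absence. Levels were compared between regions for 1 probe set at a time and never between the 2 genes.

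In the brain, noradrenaline is released mainly by neurons of the locus coeruleus and of other brainstem groups, whose fibres reach nearly the whole forebrain, cerebellum and spinal cord. Alpha-1 receptors, such as the product of Adra1b, act through Gq proteins and phospholipase C beta. Alpha-2 receptors, such as the product of Adra2c, act through Gi and Go proteins, which lower adenylyl cyclase activity, and serve both on noradrenergic terminals as autoreceptors and on the cells that these terminals contact. Beta receptors act through Gs. The alpha-2C receptor is best known in the striatum and hippocampus of rodents, and alpha-1 and beta receptors are known in the rodent pineal, where sympathetic noradrenaline drives the nightly production of melatonin.

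Both genes varied across the 48 regions, as did 91.1% of all probe sets at an adjusted p under 0.05 in limma's F-test with Benjamini-Hochberg adjustment over 45037 probe sets. Adra1b had F = 23.1 (adjusted p = 2.25e-22), with regional means between 7.27 and 9.36 and a median of 7.63. Adra2c had F = 44.4 (adjusted p = 3.29e-29), with regional means between 7.59 and 9.93 and a median of 8.07. The spread between the 2 arrays of a region was small beside these ranges, with a median SD of 0.0901 for Adra1b and 0.0760 for Adra2c, although the highest SD was 0.416 for Adra1b (mammillary body, M) and 0.337 for Adra2c (olfactory tubercle, Tu). In pooled tissue a region with fewer cells of a type and a region with less RNA per cell cannot be told apart. Against the mean of the other 47 regions, Adra1b was higher in 7 regions, lower in 15 and not called in 26, and Adra2c was higher in 8, lower in 21 and not called in 19. Over all probe sets and regions, 13.9% of such comparisons were called higher and 14.7% lower.

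Adra1b was highest in the relay and association nuclei of the thalamus. In the lateral geniculate body (LG), the visual relay, the 2 arrays read 9.33 and 9.39. In the mediodorsal nucleus (MD), which is connected with the prefrontal cortex, they read 9.28 and 9.11. The ventral anterior and ventrolateral nuclei (VA/VL), the motor relay, gave 8.86 and 9.41, a wider gap than in most regions. The ventral posteromedial and posterolateral nuclei (VPM/VPL), which relay touch, gave 9.02 and 8.96. The medial geniculate nucleus (MG), the auditory relay, was the lowest of these nuclei at 8.75 and 8.62. All of these arrays lay above those of every other region except 1 array of the motor cortex at 8.80, so the 2 sets overlap only through that array. The 5 nuclei averaged 9.07 and the other 43 regions 7.66, a difference of 1.42 ± 0.05 (SE of the limma fit), or 2.67-fold (adjusted p = 6.30e-32). In that comparison 21.1% of all probe sets were higher and 26.1% lower. With regional means as the units, so that the spread between regions enters the error, the difference was 1.42 ± 0.13 (adjusted p = 6.28e-12), and it was 1.50 and 1.31 within the 2 sampling periods that held such nuclei. MG differed from the 4 other nuclei by −0.49 ± 0.12, a comparison chosen after the values were seen and given with no test.

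The habenular nucleus (Hb), an epithalamic region grouped here with the thalamus, lay apart from the other thalamic regions. Its arrays read 7.45 and 7.40 for Adra1b, below every array of the 5 nuclei, whose lowest was 8.62. Hb differed from these 5 by −1.65 ± 0.12, a difference also chosen after the values were seen. For the thalamus with Hb included, the mean was 8.80 against 7.66 in the other divisions, a difference of 1.14 ± 0.05 (adjusted p = 6.28e-29), and 42.3% of all probe sets were called in that comparison. Within the thalamus the regional means of Adra1b ran from 7.42 in Hb through a median of 9.06 to 9.36 in LG.

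Thalamic markers moved with Adra1b in these nuclei. Of 7 thalamic marker genes, 6 were higher in the 5 nuclei and 1 lower, among them Prkcd by 4.58, Plekhg1 by 3.87, Tcf7l2 by 3.54 and Rora by 2.89 on the log2 scale, and the median of the list was 2.89 against 0.0023 over all probe sets. All 9 measured oligodendrocyte markers were also higher, with a median of 1.17, and 9 of 10 neuronal markers were higher, with a median of 0.27. In Hb relative to the 5 nuclei, the median of the thalamic list was −0.93 and that of 9 oligodendrocyte markers −0.86, while those of 8 choroid plexus and 8 ependymal markers were 0.84 and 1.17. The part of these cell types in the Adra1b difference was not tested.

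**Figure D1:**
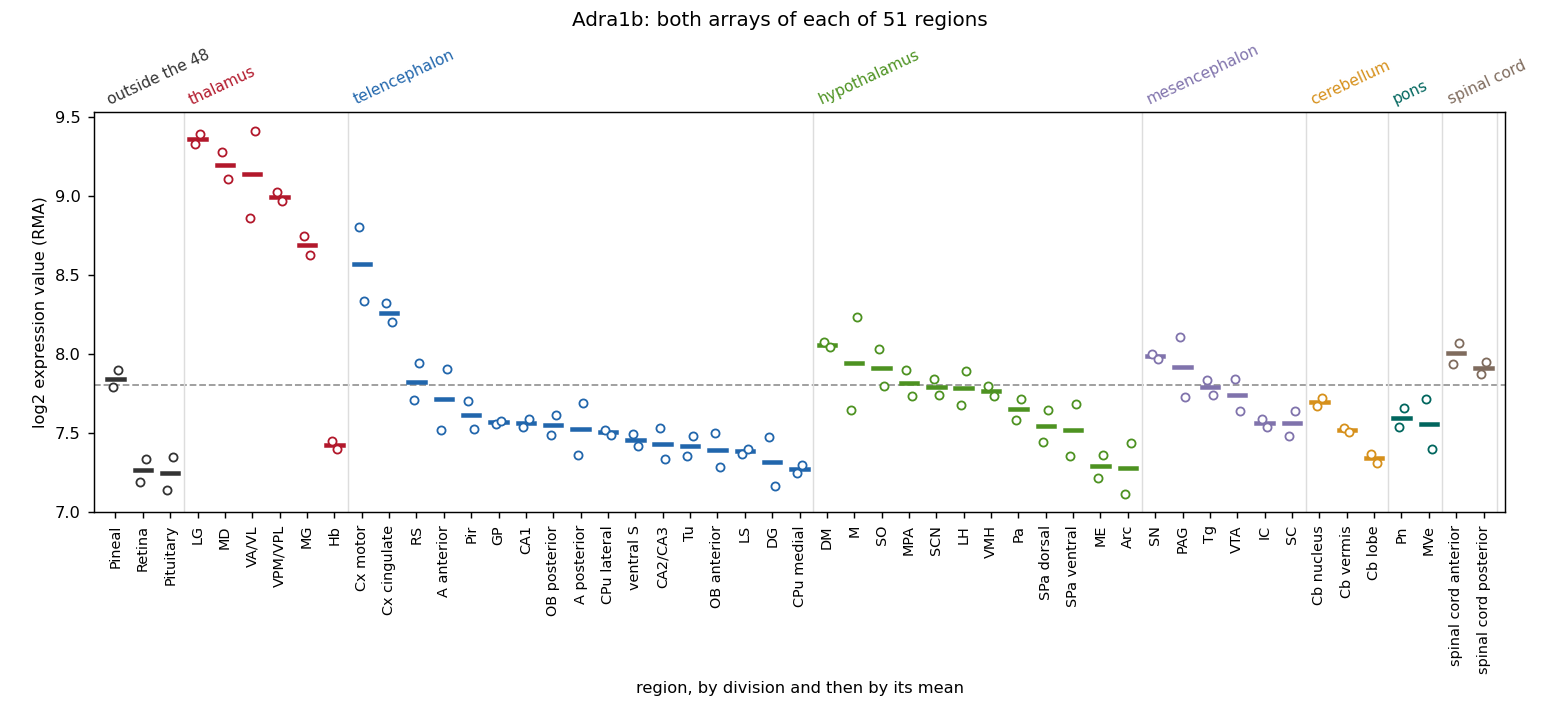
Log2 expression values of Adra1b (y axis) in 51 regions (x axis, grouped by division and ordered by mean), with circles for the 2 arrays, bars for their mean and a dashed line at the mean of the 48 regional means. The 5 thalamic nuclei other than Hb sit between 8.62 and 9.41, and no array of another region except 1 of Cx motor (8.80) reaches that range.

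Outside the thalamus, 2 cortical regions had the next highest Adra1b values. Motor cortex (Cx motor) gave 8.80 and 8.34 and cingulate cortex (Cx cingulate) 8.32 and 8.20, whereas the retrosplenial cortex (RS), which lies behind the cingulate cortex, gave 7.71 and 7.94. The arrays of the motor and cingulate cortex did not overlap with those of the retrosplenial cortex, and the difference was 0.59 ± 0.13. Against the 15 other telencephalic regions the 2 cortical regions differed by 0.91 ± 0.08, again without overlap, from 8.20 to 8.80 against 7.16 to 7.94. Both comparisons were chosen after the values were seen and carry no test.

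In the tested comparison, the 3 neocortical regions averaged 8.22 and the 3 hippocampal fields 7.44. The hippocampal arrays lay between 7.16 in the dentate gyrus (DG) and 7.59 in CA1, all below the lowest neocortical array of 7.71. The difference was 0.78 ± 0.09 (adjusted p = 7.73e-11), in a comparison in which 29.5% of all probe sets were called. With regional means as the units it was 0.78 ± 0.40 (adjusted p = 0.784), so the call rests on the spread between arrays. The error of that fit also takes in the spread among the regions on neither side, the thalamic nuclei among them. It therefore does not measure the spread of the neocortical and hippocampal regions alone. Adra1b in DG was 7.32 against 7.50 in CA1 and CA2/CA3, a difference of −0.18 ± 0.13 that did not pass the test (adjusted p = 0.341).

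The rest of the telencephalon was low in Adra1b. The division as a whole averaged 7.61 against 7.91 in the others, the thalamus among them. All 42 regions outside the thalamus averaged 7.66. The telencephalic means ran from 7.27 in the medial caudate putamen through a median of 7.52 to 8.57 in the motor cortex. The difference from the other divisions was −0.30 ± 0.03 (adjusted p = 2.63e-12) where 56.6% of all probe sets were called. It was 0.09 within 1 of the 4 sampling periods (adjusted p = 0.611) and −0.30 ± 0.15 with regional means as the units (adjusted p = 0.132). The caudate putamen (CPu), the main part of the dorsal striatum, gave 7.52 and 7.49 laterally and 7.25 and 7.30 medially. It was lower than the other telencephalic regions, with a difference of −0.25 ± 0.08 (adjusted p = 0.0106). This call was lost without replicate 2 of CPu lateral (adjusted p = 0.0504), without replicate 1 of CPu medial (adjusted p = 0.0592) and with regional means as the units (adjusted p = 0.909). The olfactory bulb (difference −0.16 ± 0.08, adjusted p = 0.0935) and the lateral septum (LS, −0.24 ± 0.11, adjusted p = 0.102) did not pass the test, in comparisons where 55.0% and 26.2% of all probe sets did. Within sampling period A, that of LS, the LS difference was −0.42 ± 0.12 and was called (adjusted p = 0.00466).

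Hypothalamic regions spanned a narrower range of Adra1b values, from 7.28 in the arcuate nucleus (Arc) through a median of 7.77 to 8.06 in the dorsomedial nucleus (DM). The arrays of DM read 8.07 and 8.04. Those of M, which were 7.65 and 8.23, disagreed by more than those of any other region. The hypothalamus averaged 7.69, against 7.84 in the other divisions, the thalamus among them, and 7.66 in all regions outside the thalamus. The difference from the other divisions, −0.15 ± 0.04 (adjusted p = 3.17e-04), was called in a comparison that called 58.6% of all probe sets. It was of the opposite sign within sampling period C (0.45, adjusted p = 1.80e-05), −0.45 within period B and −0.12 and −0.23 within the 2 others, where it was not called, and the call was lost with regional means as the units (adjusted p = 0.573). The paraventricular nucleus (Pa), an autonomic and neuroendocrine centre with dense noradrenergic input, averaged 7.65 against 7.70 in the other hypothalamic regions (difference −0.05 ± 0.11, adjusted p = 0.843), and 9.88% of all probe sets differed there.

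In the hindbrain, midbrain and spinal cord the Adra1b differences were small. The cerebellum averaged 7.52 against 7.82 elsewhere (difference −0.31 ± 0.06, adjusted p = 4.70e-05; 54.6% of all probe sets called), and its cortex 7.43 against 7.69 in the cerebellar nucleus (−0.26 ± 0.13, adjusted p = 0.0972; 43.2% called). The call for the cerebellum was lost with regional means as the units (adjusted p = 0.547) and within sampling period B (−0.18, adjusted p = 0.284). The mesencephalon differed from the other divisions by −0.05 ± 0.05 (adjusted p = 0.414) where 34.1% of all probe sets were called, and within sampling period B it was called lower (−0.20, adjusted p = 0.00976). The pons averaged 7.58 against 7.82 (−0.24 ± 0.08, adjusted p = 0.0114), where 36.5% were called, and the call was lost without replicate 1 of the pontine nucleus (adjusted p = 0.0994) or replicate 2 of the medial vestibular nucleus (adjusted p = 0.202), and with regional means as the units (adjusted p = 0.893).

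The spinal cord was the only division other than the thalamus with a mean above that of all other divisions, the thalamus among them. The 42 regions outside the thalamus averaged 7.66, and the hypothalamus (7.69) and mesencephalon (7.76) also lay above that value. The arrays of the spinal cord lay between 7.87 and 8.07, and its mean was 7.96 against 7.80 in the other divisions (0.16 ± 0.08, adjusted p = 0.10, where 40.3% of all probe sets were called). This difference passed the test after cyclic loess normalization (0.19, adjusted p = 0.0380). Against the brain regions outside the thalamus, chosen after the values were seen, the spinal cord was higher by 0.31 ± 0.08. The posterior and anterior spinal cord had 7.91 and 8.00, a difference of −0.09 ± 0.15 (adjusted p = 0.861) in a comparison in which 1.69% of all probe sets passed.

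Adra2c had a different distribution, with its highest values in the striatum. The medial caudate putamen read 10.09 and 9.76 and the lateral part 9.89 and 9.78. The olfactory tubercle (Tu), a part of the ventral striatum, read 9.52 and 9.99. These 3 regions overlapped with each other and with no other region, and Tu differed from CPu by −0.13 ± 0.10, a comparison chosen after the values were seen. Against the other telencephalic regions, Tu among them, CPu averaged 9.88 against 8.51, a difference of 1.37 ± 0.06 or 2.59-fold (adjusted p = 2.78e-27). In that comparison 17.1% of all probe sets were higher and 18.6% lower. With regional means as the units the difference was 1.37 ± 0.23 (adjusted p = 7.66e-05), and without Tu on the other side, an alternative chosen after the values were seen, it was 1.46.

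The globus pallidus (GP), which receives the striatal output, did not share the striatal level. It read 8.48 and 8.68 and differed from CPu by −1.30 ± 0.10, a difference given with no test because it was chosen after the values were seen. The lateral septum, a relay between hippocampus and hypothalamus, was the lowest telencephalic region for Adra2c on 1422335_at, at 7.89 and 7.95. It lay below every other telencephalic array (8.01 to 10.09), with a difference of −0.80 ± 0.08 (adjusted p = 1.80e-11). On 1435296_at LS was not the lowest, since 2 of the 16 other telencephalic regions, both parts of the olfactory bulb, had lower means, and its difference was −0.56 ± 0.11 (adjusted p = 1.10e-04). The LS difference was not called on 1439762_x_at (−0.23, adjusted p = 0.126) or on 1457328_at (−0.07, adjusted p = 0.594).

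All 7 measured markers of striatal projection neurons were higher in CPu, with a median of 3.52 against 0.0026 over all probe sets, among them the dopamine receptor Drd1 by 4.10 and the phosphoprotein gene Ppp1r1b by 3.67. All 9 oligodendrocyte markers were higher there as well, with a median of 0.73, whereas of 10 general neuronal markers 1 was higher and 7 were lower. Of 10 leptomeningeal markers 9 were lower, with a median of −0.45. The part of cell composition in the Adra2c difference was not tested.

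**Figure D2:**
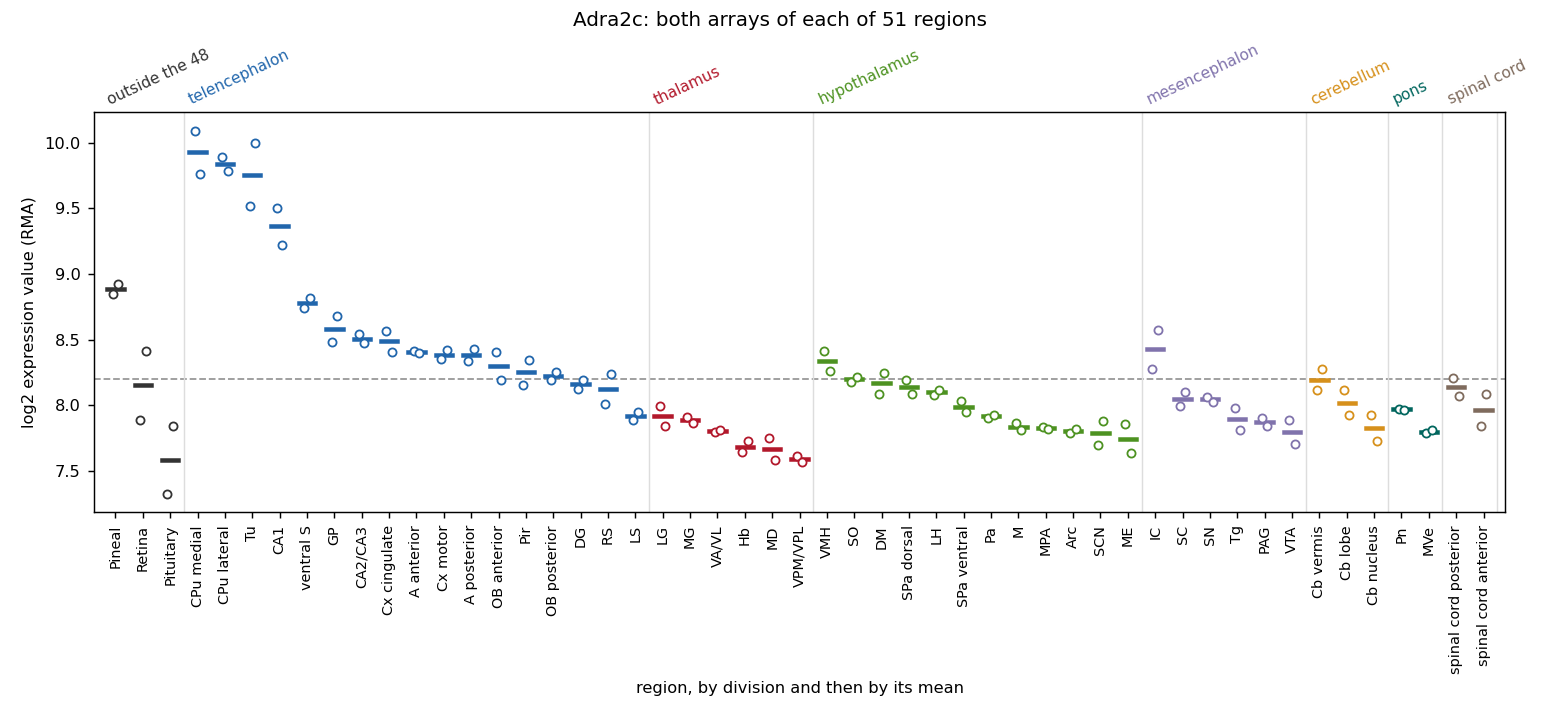
Log2 expression values of Adra2c (y axis) in 51 regions (x axis, grouped by division and ordered by mean), with circles for the 2 arrays, bars for their mean and a dashed line at the mean of the 48 regional means. CPu medial, CPu lateral and Tu sit between 9.52 and 10.09, CA1 between 9.22 and 9.51, the pineal between 8.85 and 8.92, and no thalamic array is above 7.99.

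The hippocampal formation held the next highest Adra2c values, and its fields were unequal. CA1, the output field of the hippocampus, read 9.51 and 9.22. The ventral subiculum (ventral S), to which CA1 projects, read 8.74 and 8.82. CA2/CA3 read 8.54 and 8.47 and DG 8.12 and 8.20. None of these 4 regions overlapped with another, in the order CA1, ventral S, CA2/CA3 and DG. In the tested comparison DG was lower than CA1 and CA2/CA3, with a difference of −0.78 ± 0.10 (adjusted p = 7.33e-09), where 27.1% of all probe sets were called. CA1 against CA2/CA3 and DG was 1.03 ± 0.10 and ventral S against CA1 −0.59 ± 0.11, both chosen after the values were seen and given with no test.

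The second Adra2c probe set gave smaller differences within the hippocampal formation. On 1435296_at CA1 read 8.63 and 8.18, ventral S 8.26 and 8.37, CA2/CA3 7.95 and 7.92, and DG 7.99 and 8.11, so that CA1 overlapped with ventral S. The DG difference on this probe set was −0.12 ± 0.14 (adjusted p = 0.569), and CA1 against CA2/CA3 and DG was 0.41 ± 0.14. The low DG value of Adra2c relative to the other fields was therefore called on 1422335_at alone of the 4 probe sets.

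Neocortex and hippocampal fields differed in the opposite direction to Adra1b. The 3 neocortical regions averaged 8.33 for Adra2c and the 3 hippocampal fields 8.68, a difference of −0.35 ± 0.07 (adjusted p = 2.46e-05) with overlapping arrays, 8.01 to 8.57 against 8.12 to 9.51. It was −0.04 within the sampling period that held both (RS and DG, adjusted p = 0.910), −0.12 on 1435296_at (adjusted p = 0.356) and −0.35 ± 0.42 with regional means as the units (adjusted p = 1.00).

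For the telencephalon as a whole, Adra2c averaged 8.67 against 7.95 in the other divisions. The regional means ran from 7.92 in LS through a median of 8.41 to 9.93 in CPu medial. The difference was 0.72 ± 0.02 or 1.65-fold (adjusted p = 8.67e-34), between 0.33 and 0.76 within the 4 sampling periods and 0.72 ± 0.12 with regional means as the units (adjusted p = 7.79e-06). Within the division the olfactory bulb was lower than the other regions, with a difference of −0.46 ± 0.06 (adjusted p = 3.26e-09), a call that was lost with regional means as the units (adjusted p = 0.325).

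On 1422335_at Adra2c was lowest in the thalamus. VPM/VPL had the lowest of the 48 regional means on this probe set at 7.59, followed by MD at 7.67 and Hb at 7.68. LG was its highest thalamic region at 7.92. On 1435296_at the lowest of the 48 was the median eminence at 6.78, and VPM/VPL was at 7.49. The thalamus averaged 7.76 against 8.27 in the other divisions, a difference of −0.51 ± 0.04 (adjusted p = 6.11e-19), and without Hb the 5 nuclei averaged 7.77 against 8.25, a difference of −0.48 ± 0.04 (adjusted p = 1.35e-16). Both calls were lost with regional means as the units (adjusted p = 0.254 and 0.282). On 1435296_at the 2 differences were −0.46 (adjusted p = 5.13e-12) and −0.39 (adjusted p = 4.60e-09). Neither was called on 1439762_x_at (−0.09, adjusted p = 0.151, and −0.10, adjusted p = 0.128). The same held on 1457328_at (0.03, adjusted p = 0.601, and 0.04, adjusted p = 0.368). Hb differed from the 5 nuclei in Adra2c by −0.09 ± 0.09 on 1422335_at. On 1435296_at its mean of 7.16 lay below those of all 5 nuclei, with a difference of −0.29 ± 0.12, and its arrays, 6.90 and 7.41, overlapped with theirs (7.11 to 7.62). Both differences were chosen after the values were seen.

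The remaining divisions were all below the mean of the others in Adra2c, the telencephalon among them. The 31 regions outside the telencephalon averaged 7.95. Of these remaining divisions only the pons lay below that value, and the hypothalamus, mesencephalon, cerebellum and spinal cord lay above it. The hypothalamus averaged 7.99 against 8.28 (difference −0.29 ± 0.03, adjusted p = 2.71e-14), with VMH, the ventromedial nucleus, highest at 8.34 and the median eminence lowest at 7.74. Pa, at 7.91 against 7.99 in the other hypothalamic regions, did not pass the test (adjusted p = 0.621). The mesencephalon averaged 8.01 against 8.23 (−0.22 ± 0.04, adjusted p = 7.31e-07), with the inferior colliculus, an auditory centre, highest at 8.42. The pons averaged 7.88 against 8.22 (−0.33 ± 0.06, adjusted p = 3.80e-06) and the cerebellum 8.01 against 8.22 (−0.20 ± 0.05, adjusted p = 3.23e-04). These 4 calls were lost with regional means as the units, and that for the pons also on 1435296_at (−0.15, adjusted p = 0.144). Within sampling periods the hypothalamus was not called in D (−0.07, adjusted p = 0.566) and the mesencephalon not in B (−0.03, adjusted p = 0.720) or D (−0.23, adjusted p = 0.0504).

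The smaller Adra2c differences turned on single arrays. The spinal cord averaged 8.05 against 8.21 (−0.16 ± 0.06, adjusted p = 0.0245), a call that was lost without anterior replicate 1 (−0.10), without posterior replicate 2 (−0.12) and on 1435296_at (−0.05, adjusted p = 0.642). It was also lost after cyclic loess normalization (−0.13, adjusted p = 0.0765), within sampling period B (−0.03, adjusted p = 0.751) and with regional means as the units (adjusted p = 0.925). Cerebellar cortex averaged 8.11 against 7.83 in the cerebellar nucleus (0.28 ± 0.10, adjusted p = 0.0172), and the call was lost without vermis replicate 2 (0.24), without lobe replicate 1 (0.23), without nucleus replicate 2 (0.18) and on 1435296_at (0.05, adjusted p = 0.814). The posterior and anterior spinal cord, at 8.14 and 7.96, did not differ beyond their spread (0.17 ± 0.11, adjusted p = 0.550).

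The 4 Adra2c probe sets were compared over the 48 regional means. The r between 1422335_at and 1435296_at was 0.94, that with 1439762_x_at was 0.67 and that with 1457328_at was −0.02. These correlations describe 48 points that share arrays, normalization and cell types, and carry no p. On 1435296_at the striatal regions were also highest, with arrays between 9.20 and 9.67, and CPu exceeded the other telencephalon by 1.34 ± 0.08 (adjusted p = 1.47e-20) and the telencephalon the other divisions by 0.70 ± 0.03 (adjusted p = 1.65e-26). The remaining 2 probe sets had narrow ranges, with regional means from 4.91 to 5.58 on 1439762_x_at (F = 2.36, adjusted p = 0.00159) and from 5.41 to 5.98 on 1457328_at (F = 2.24, adjusted p = 0.00285), and on neither was CPu called (0.18, adjusted p = 0.0800, and 0.05, adjusted p = 0.618). The telencephalon was also higher on 1439762_x_at, by 0.19 ± 0.03 (adjusted p = 1.61e-06), and was not called on 1457328_at (−0.02, adjusted p = 0.562). The striatal and pineal differences of Adra2c were called on the 2 probe sets with the higher means alone, and that of the telencephalon on these 2 and on 1439762_x_at.

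**Figure D3:**
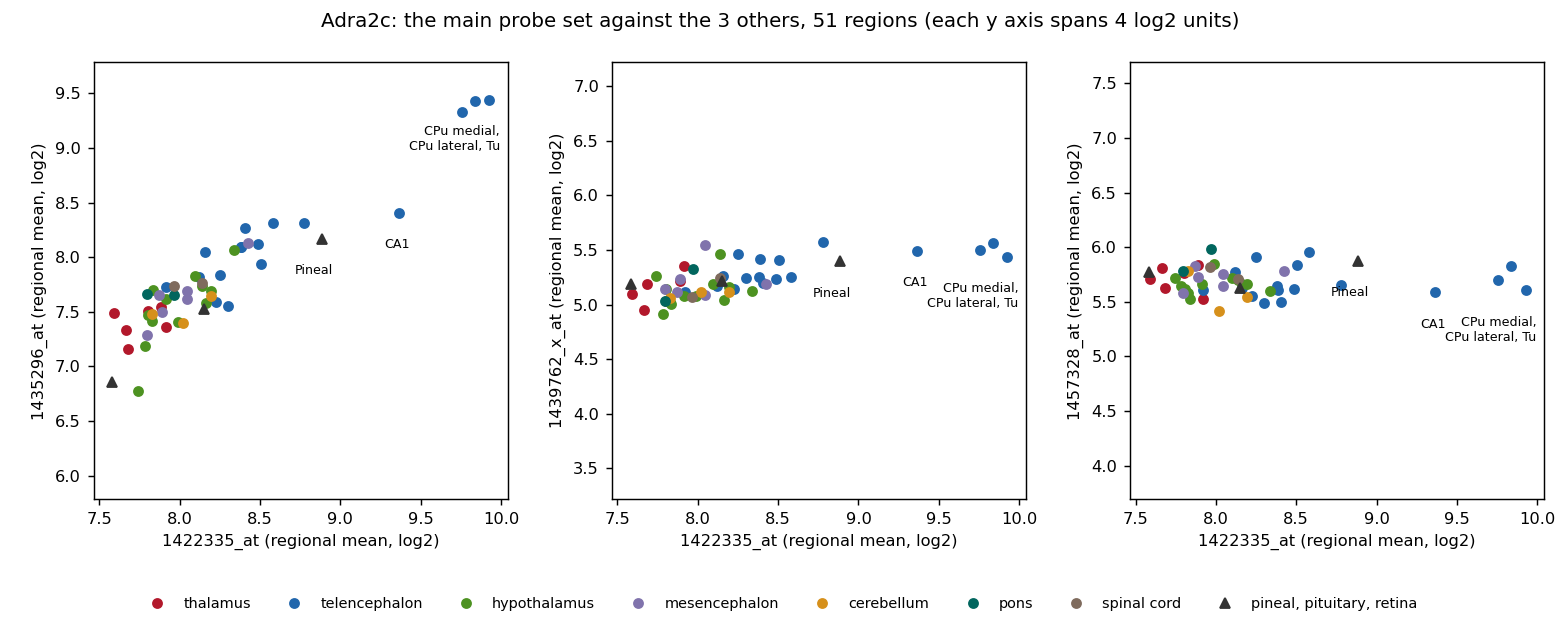
Regional means (log2) of 3 Adra2c probe sets (y axes, each spanning the same number of log2 units) against those of 1422335_at (x axes) in 51 regions, coloured by division. On 1435296_at the striatal regions are apart from the rest as on 1422335_at, whereas on 1439762_x_at and 1457328_at all regions lie in a narrow band.

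Set side by side, the 2 receptors were called in opposite directions in many of the regions where either was high. Each call is relative to the mean of the other 47 regions, which the highest regions of a gene raise. The mean of the 48 regions was 7.81 against a median of 7.63 for Adra1b, and 8.20 against 8.07 for Adra2c. Regions outside a gene's peak are thus more readily called lower, and the share of opposite calls over other gene pairs was not computed. In 5 regions (LG, MD, MG, VA/VL and VPM/VPL) Adra1b was higher than in the other regions and Adra2c lower, and in 5 others (CPu medial, CPu lateral, Tu, CA2/CA3 and ventral S) Adra2c was higher and Adra1b lower. The cingulate cortex was the single region in which both were higher, and both were lower in Arc, Hb, LS, the median eminence and the ventral subparaventricular zone. The r between the 2 genes over the 48 regional means was −0.33, a description of regions that share arrays and cell types. In the order of regional means, 43 of 47 neighbouring pairs overlapped in their arrays for each gene. Adra1b had gaps below LG, VPM/VPL, Cx motor and Cx cingulate. Adra2c had gaps below Tu, CA1, ventral S and the medial preoptic area (MPA), so the order among the many low regions is within the spread of the arrays.

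**Figure D4:**
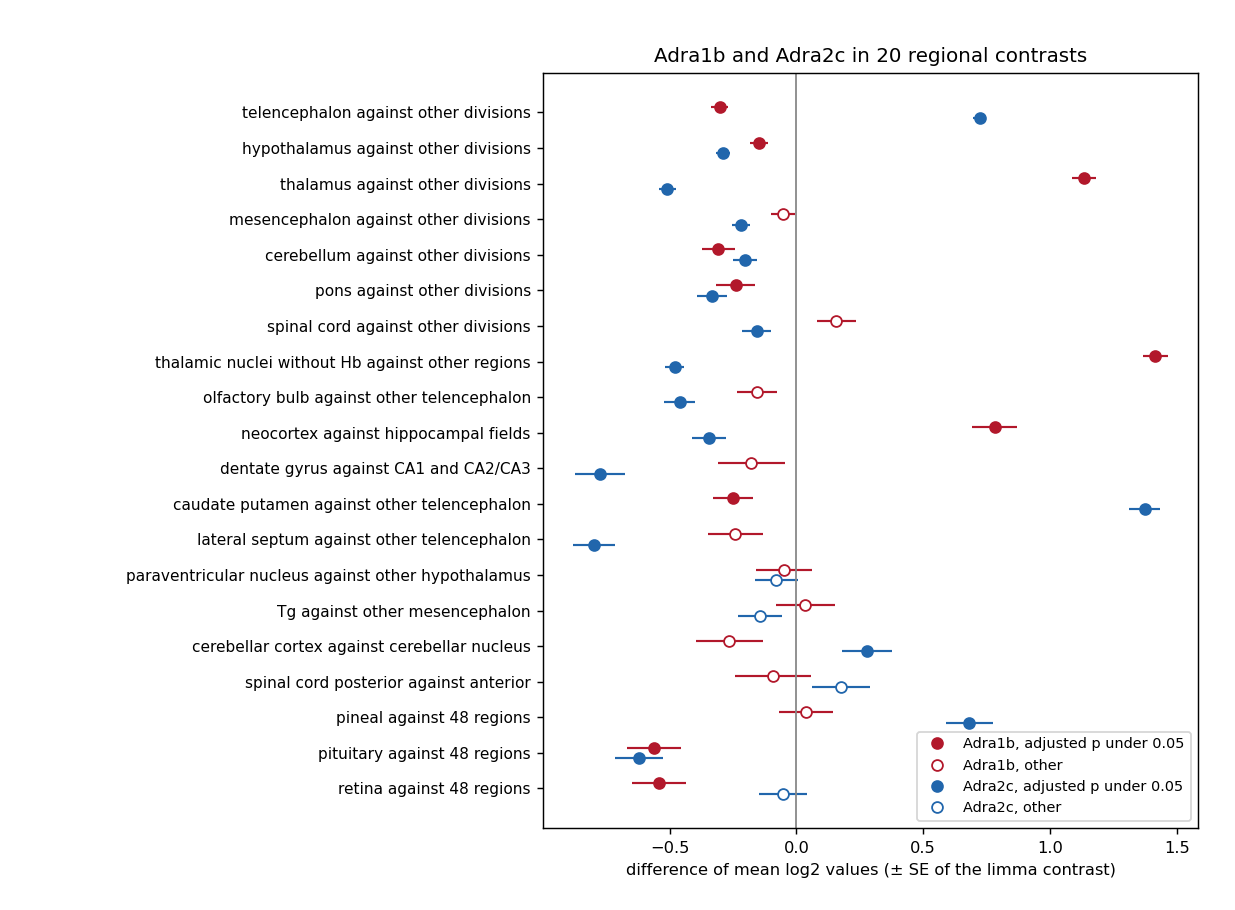
Differences of mean log2 values (x axis, with SE) of Adra1b and Adra2c in each tested comparison (rows), filled where the adjusted p was under 0.05. Adra1b reaches 1.42 in the thalamic nuclei without Hb, where Adra2c is at −0.48, and Adra2c reaches 1.37 in the caudate putamen, where Adra1b is at −0.25.

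The pineal, which produces melatonin and receives sympathetic noradrenergic fibres, was compared with the 48 regions. Adra2c read 8.85 and 8.92 in the pineal, and only CPu medial, CPu lateral, Tu and CA1 had higher regional means. The mean of 8.88 against 8.20 in the 48 regions was a difference of 0.68 ± 0.09 or 1.60-fold (adjusted p = 5.18e-09), with 28.3% of all probe sets called higher and 23.1% lower. On 1435296_at the pineal arrays read 8.14 and 8.19 and the difference was 0.37 ± 0.11 (adjusted p = 0.00546), and on the 2 probe sets with low means it was not called. The pineal differed from CPu in Adra2c by −0.997 ± 0.113, a comparison chosen after the values were seen.

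Adra1b read 7.79 and 7.90 in the pineal, and 14 of the 48 regions had a higher mean. The difference from the 48 regions was 0.04 ± 0.11 (adjusted p = 0.801), so that a difference in this gene was not shown, and within the sampling period of the pineal, which held 5 of the 48 regions, it was 0.30 (adjusted p = 0.0259). All 4 measured pineal markers were higher in the pineal, led by the serotonin-synthesis enzyme Tph1 by 8.66 and including Aanat, the timing enzyme of melatonin synthesis, by 0.58. Of 8 choroid plexus markers 7 were higher, with a median of 3.69, and of 10 leptomeningeal markers 8 were higher, with a median of 2.28, against 0.0107 over all probe sets. Of 10 neuronal markers 8 were lower, with a median of −3.98. The part of these cell types in the pineal Adra2c value was not tested.

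Both genes were low in the pituitary. Adra1b read 7.14 and 7.35, below all 48 regional means on average, and differed by −0.56 ± 0.11 (adjusted p = 8.78e-06), where 50.1% of all probe sets were called. Adra2c read 7.32 and 7.84 there and differed by −0.62 ± 0.09 (adjusted p = 6.22e-08). On 1435296_at the Adra2c difference was −0.94 ± 0.11 (adjusted p = 2.07e-10). In the retina, where 69.5% of all probe sets differed, Adra1b read 7.19 and 7.33 and was lower, with a difference of −0.54 ± 0.11 (adjusted p = 1.19e-05). Adra2c read 7.89 and 8.41 in the retina, which differed from the 48 regions by −0.05 ± 0.09 (adjusted p = 0.621) on 1422335_at and by −0.27 ± 0.11 (adjusted p = 0.0330) on 1435296_at.

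The genes that make, store and remove noradrenaline were followed in the same comparisons. No region analysed here is labelled as the locus coeruleus, which the authors state they did not sample. The dorsal tegmental nucleus (Tg), its neighbour in the brainstem, had the highest regional mean of the 48 for Dbh, the enzyme that turns dopamine into noradrenaline, at 8.99, followed by the cerebellar nucleus at 8.87, and the lowest was the periaqueductal gray at 8.13. Against the other mesencephalon, where 5.38% of all probe sets were higher and 4.15% lower, 9.52% in all, 3 of the 7 genes of synthesis and transport were higher in Tg (Slc18a2, the vesicular monoamine transporter, by 1.05, Dbh by 0.70 and Ddc by 0.70) and 1 was lower (Th, with a difference of −1.30). The other mesencephalon includes the ventral tegmental area, substantia nigra and periaqueductal gray, which had the 3 highest means of Slc18a2 (12.33, 12.21 and 10.69) and of Ddc (12.88, 12.85 and 11.80). Tg lay below these 3 regions for both genes and exceeded only the average of the other mesencephalon. Phox2a, a transcription factor of noradrenergic neurons, was higher in Tg by 0.49 ± 0.08. Its mean in Tg was 5.89, a level within the range of the genes of other tissues. Slc6a2, the noradrenaline transporter, did not differ in Tg (−0.17 ± 0.08, adjusted p = 0.200) and ranged only from 7.92 to 8.41 over the 48 regions. Neither receptor was called in Tg, with differences of 0.04 ± 0.12 for Adra1b (adjusted p = 0.901) and −0.14 ± 0.09 for Adra2c (adjusted p = 0.337).

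In the 5 thalamic nuclei, differences are again given as log2 values of these nuclei minus the other regions. Of 38 genes of noradrenaline supply and receptor signalling 8 were higher and 17 lower, against 21.1% of all probe sets higher and 26.1% lower. The number of higher genes was near the share over all probe sets and that of lower genes above it, an excess that was not tested. Each of the 38 genes was read by its probe set with the highest mean. The share covers all 45037 probe sets, those that name no gene among them, here and in the 2 comparisons below. Of the synthesis and transport genes 3 of 7 were lower (Ddc at −0.90, Th at −0.87 and Dbh at −0.10) and none was higher, with a list median of −0.10 against 0.0023 over all probe sets. Of 2 breakdown genes Maob was higher by 0.24. Of 9 G protein genes 2 were higher and 6 lower. Gnal, which encodes the olfactory-type stimulatory alpha subunit, was higher by 1.08 and Gnas by 0.08. The inhibitory-class subunit genes Gnai2, Gnaz, Gnao1 and Gnai3 were lower at −0.39, −0.39, −0.26 and −0.19. Gna11 and Gnaq, of the Gq class through which alpha-1 receptors act, were also lower, at −0.23 and −0.14. Phospholipase C beta genes, the effectors of alpha-1 receptors, differed among themselves, with Plcb4 higher by 1.93, Plcb1 lower at −0.87 and the 2 others not called. Of 9 adenylyl cyclase genes 2 were higher (Adcy1 by 1.70 and Adcy8 by 1.59) and 5 lower, led by Adcy2 at −0.56. Of 6 receptor kinase and arrestin genes, Grk5 and Grk3 were higher by 0.59 and 0.57 and Arrb1 and Arrb2 lower at −0.64 and −0.63.

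In CPu, 7 of the 38 genes were higher than in the other telencephalic regions and 16 lower, against 17.1% of all probe sets higher and 18.6% lower. Here too the number of higher genes was near the share over all probe sets and that of lower genes above it, which was not tested. Slc18a2 was the single called gene of 7 for synthesis and transport, higher by 0.86, and both breakdown genes were lower. Of the G protein genes 1 was higher and 5 lower, with Gnal higher by 2.03 and Gnas, the general stimulatory subunit, lower at −1.60, Gnai1 at −0.94 and Gnaq at −0.69. Plcb1 was higher by 0.54 and Plcb4 lower at −1.14, the reverse of the thalamic nuclei. Of the cyclases 3 were higher and 5 lower, with Adcy5, the main striatal adenylyl cyclase, higher by 2.38 and Adcy8, Adcy2 and Adcy6 lower at −1.90, −0.94 and −0.73. Of the kinases and arrestins, 1 was higher (Grk5, by 0.39) and 3 were lower, led by Grk3 at −1.44.

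In the pineal, 7 of the 38 genes were higher than in the 48 regions and 19 lower, against 28.3% of all probe sets higher and 23.1% lower. Ddc, which also acts in serotonin synthesis, was higher by 4.68, and Slc18a2 and Th were lower at −1.64 and −0.91. The medians of the 48 regional means were 6.88 for Slc18a2 and 7.84 for Th, against 5.78 and 7.45 in the pineal. Of the G protein genes 2 were higher and 6 lower, and the 4 with the largest differences (Gnal, Gnao1, Gnaz and Gnaq) were lower at −4.01, −3.0, −2.12 and −1.50. Plcb1 was lower at −2.02 and Plcb4 higher by 1.08. Of the cyclases 3 were higher and 5 lower, with Adcy5 at −2.30 and Adcy8 at −1.98, and 4 of 6 kinases and arrestins were lower, led by Arrb1 at −1.90. The list medians were −0.68 for the G proteins, −0.93 for the cyclases and −0.45 for the kinases and arrestins.

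**Figure D5:**
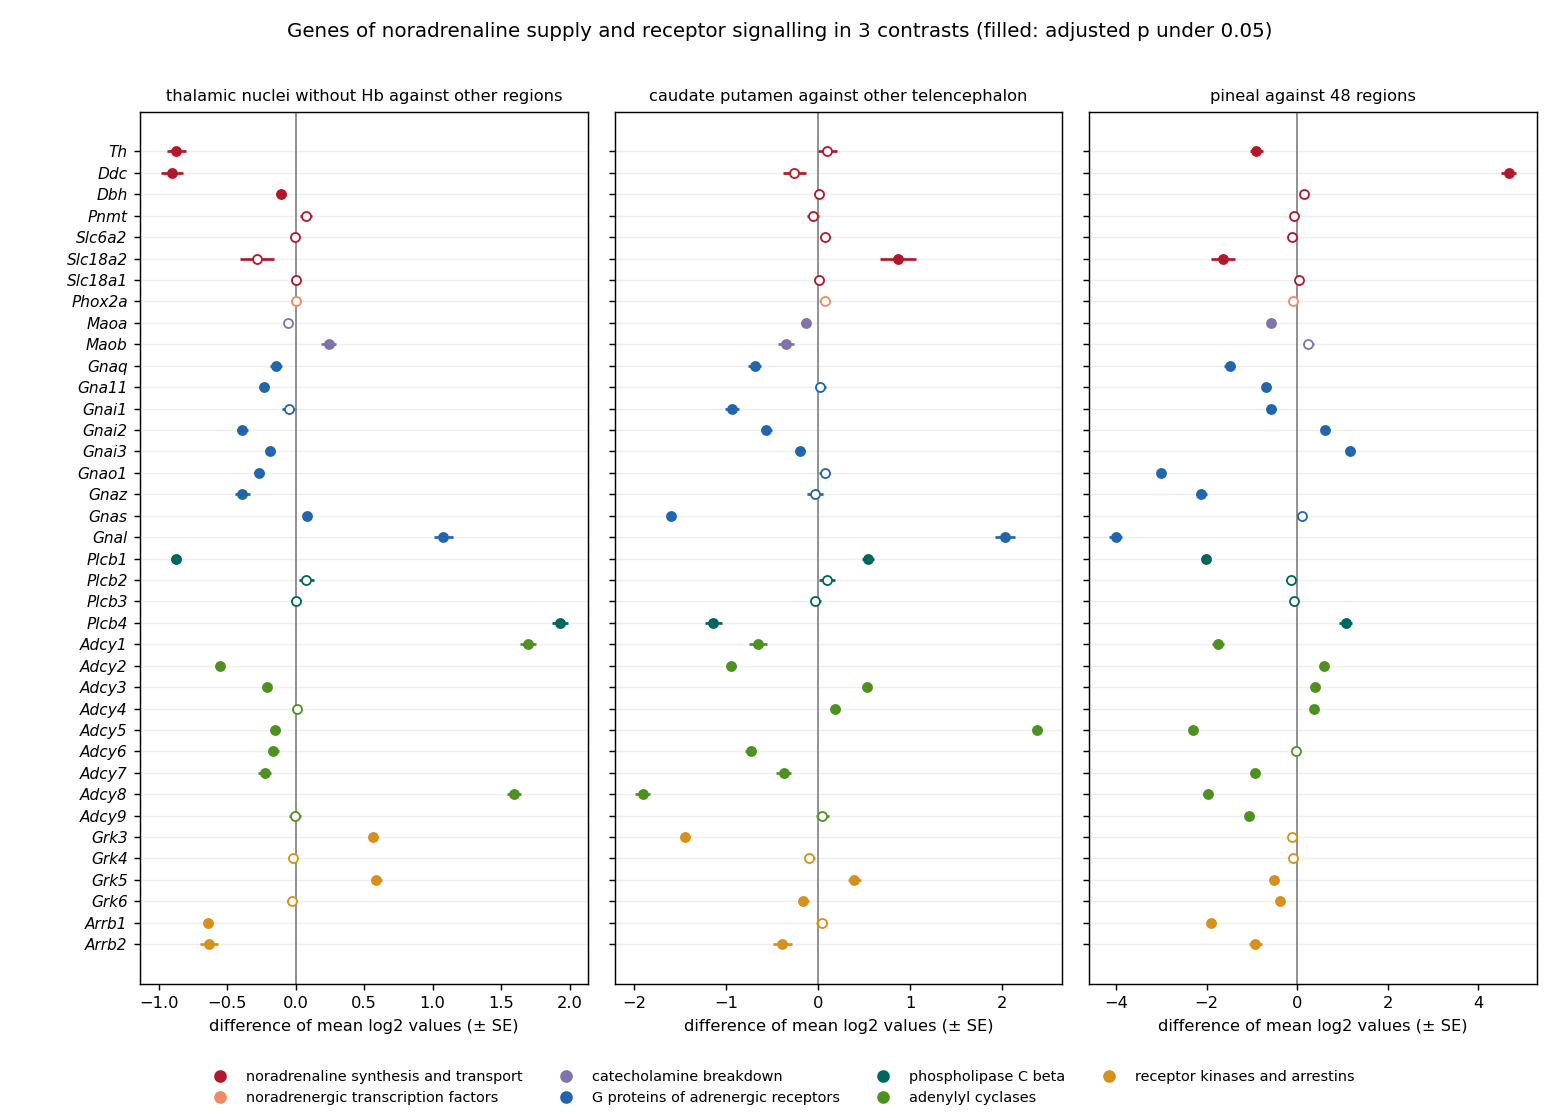
Differences of mean log2 values (x axes, with SE, filled where the adjusted p was under 0.05) of 38 genes of noradrenaline supply and receptor signalling (rows, coloured by group) in 3 comparisons. Plcb4 is to the right and Plcb1 to the left of 0 in the thalamic nuclei and the pineal, and they change sides in the caudate putamen, where Adcy5 and Gnal are farthest to the right.

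Over the 48 regional means, several signalling genes ran with or against Adra2c. The r was −0.82 for Gnas, 0.72 for Plcb1, −0.71 for Plcb4 and 0.70 for Adcy5. For Adra1b the highest r among these genes were 0.58 for Adcy8 and 0.51 for Plcb4. The striatal regions carry much of the range of Adra2c and the thalamic nuclei much of that of Adra1b, and these values describe 48 points that share arrays and cell types.

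Among 14447 genes whose highest regional mean reached 7 or more, those most like Adra1b over the 48 regional means were Gjc1 (r = 0.88), a gap junction protein gene, Cit (0.87), the citron kinase gene, Mrvi1 (0.85), Opn3 (0.84), an opsin gene, and Plekhg1 (0.82). The highest regional mean of each was in VPM/VPL, MD, VA/VL or LG. Those most like Adra2c were Dazl (r = 0.89), an RNA-binding protein gene of germ cells, Gng7 (0.87), the G protein gamma subunit gene known from the striatum, Asb11 (0.86), Cbr3 (0.84), a carbonyl reductase gene, and Akap5 (0.83), a scaffold gene for protein kinase A. The highest regional mean of each lay in CPu medial or CPu lateral.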

How the data were processed

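The authors deposited log2 expression values of Affymetrix mouse arrays, normalized by robust multi-array averaging (RMA; its version is not given in the sources used here). After removal of 64 control probe sets, 34945 of 45037 named 1 gene in the platform annotation, 932 several and 9160 none, and 34741 of the first had a gene ID in RefSeq. Each gene was read by its probe set with the highest mean over the 48 regions. The members, gene lists and comparisons were chosen with earlier results of these data known. The text names the members, up to 4 genes a list with the largest differences, the 5 genes most like each member and marker genes beside a result. For the G proteins in the thalamic nuclei it names all called genes.

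A coefficient for every region was fitted with limma 3.58.1 (R 4.3.3), leaving 48 residual degrees of freedom, or 51 where the retina, pituitary and pineal entered. P-values were adjusted over all probe sets by the Benjamini-Hochberg method, with a threshold of 0.05. Unless regional means are named as the units, SE and p measure the spread between the 2 pools of a region, which came from separate rounds of sampling. With regional means as the units, the error pools the spread within the tested side, within the other side and among any regions on neither side. The fit was tried on simulated shifts with independent noise and no other differences between regions, so that trial does not bear on the spread between regions or on deviations shared by arrays. Tables and figures were made in Python 3.11.15 (pandas 2.3.3, numpy 2.4.6, matplotlib 3.10.9). Alternatives were cyclic loess normalization, other probe sets, a minimum of 7 for the highest regional mean, a variance trend with robust estimation, the replicate number or sampling day as a block, fits within 4 runs of sampling days (periods A to D with 17, 18, 10 and 6 regions), regional means as the units, and each array left out in turn. The number of arrays limits the precision.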

Additional observations from a re-analysis of the deposited data

Results flagged for a closer look

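The mean of Adra1b in Hb, 7.42, was flagged as far from the other 5 regions of the thalamus, the next lowest of which was MG at 8.69. The gap was 0.652 of the range of the 6 regional means, above Dixon's critical value of 0.625. Both genes were checked in the thalamus and the mesencephalon, the divisions with 6 regions, and chance flags about 1 in 20 such groups. Both Hb arrays were low (7.45 and 7.40). Adra2c in Hb was 7.68 on 1422335_at, within the range of the other thalamic regions.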

How the results depend on the processing

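The replicate block, the sampling day as a block, the variance trend and the minimum of 7 left the direction and the call of all 20 comparisons of each gene as they were. The replicate block gave 1.42 for Adra1b in the thalamic nuclei without Hb. Over all regions the replicate numbers did not pair the arrays, since of 1128 pairs of regions 282 had a correlation of deviations above 0.1 and 234 one under −0.1. This does not exclude shared deviations in single pairs, and the r was 0.29 between CPu lateral and CPu medial and −0.17 between LG and MD. With regional means as the units, 6 of 11 comparisons of Adra1b and 9 of 11 of Adra2c were no longer called, among them neocortex against hippocampal fields (0.78, adjusted p = 0.784, for Adra1b and −0.35, adjusted p = 1.00, for Adra2c).

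Cyclic loess turned the uncalled Adra1b difference of the pineal to −0.020, gave a call for Adra1b in the spinal cord (0.19) and ended that for Adra2c there (−0.13). Within sampling periods, Adra1b turned in the telencephalon (0.090, D), hypothalamus (0.45, C), thalamus (−0.18, C, where Hb is the only thalamic region), mesencephalon (0.058, A, and 0.25, D) and Pa (0.38, B), and Adra2c turned in Pa (0.11, B). Adra1b lost the call in the hypothalamus (−0.12, A, and −0.23, D) and cerebellum (−0.18, B) and gained one in the mesencephalon (−0.20, B), LS (−0.42, A) and pineal (0.30, D). Adra2c lost it for neocortex (−0.039, B), hypothalamus (−0.067, D), mesencephalon (−0.027, B, and −0.23, D) and spinal cord (−0.029, B). The cause of these changes was not tested.

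The Adra2c probe sets with low means gave other values. On 1457328_at the telencephalon was at −0.018, thalamus 0.027, thalamic nuclei 0.045, mesencephalon 0.034, pons 0.20, spinal cord 0.079, neocortex −0.020, dentate gyrus −0.086, caudate putamen 0.047, Pa 0.000987, Tg 0.00692, cerebellar cortex −0.30, posterior spinal cord −0.11, pineal 0.19 and pituitary 0.082. On 1439762_x_at the mesencephalon was at 0.00450, neocortex −0.11, dentate gyrus −0.19, caudate putamen 0.18, Tg 0.020, pineal 0.18, pituitary −0.026 and retina 0.00420. On 1435296_at neocortex was at −0.12, dentate gyrus −0.12 and Pa 0.083.

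With each array left out in turn, Adra1b ranged from −0.11 to 0.018 in Pa, from −0.011 to 0.082 in Tg and from −0.013 to 0.090 in the pineal, 3 uncalled differences that changed sign. Called differences that lost the call ranged from −0.32 to −0.16 (pons) and −0.27 to −0.23 (caudate putamen) for Adra1b, and from −0.22 to −0.10 (spinal cord) and 0.18 to 0.38 (cerebellar cortex) for Adra2c. Arrays of the pituitary and retina were not left out.

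Counts of called probe sets fell by over 1.5 times with regional means as the units, to 11313 (telencephalon), 9278 (hypothalamus), 1347 (thalamus), 20 (mesencephalon), 2832 (cerebellum), 41 (pons), 337 (spinal cord), 2019 (thalamic nuclei), 3256 (olfactory bulb), 288 (neocortex) and 1309 (caudate putamen), against 25497, 26373, 19043, 15337, 24604, 16457, 18162, 21271, 24750, 13282 and 16052 with arrays as the units, in the same order. With 2 arrays a region, small differences in the low regions are within the spread.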
